A study of Mus musculus with 12 samples.

Results

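The genes described here are 10 markers and regulators of the epithelial to mesenchymal transition (EMT). Cdh1, Epcam, Krt8 and Krt18 stand on the epithelial side, Cdh2 and Vim on the mesenchymal side, and Snai1, Snai2, Zeb1 and Zeb2 encode transcription factors that drive the switch. They were chosen by name, as the array features annotated with 1 of these symbols and no other, with no threshold on a measured value, although earlier results of these data were known when the set was proposed. Each gene was represented by 1 feature. Of 19938 genes with such a feature, 10880 exceeded a signal of 45 (log2 5.49, the background limit given in the study's methods) on at least 1 array and were tested, and all 10 EMT genes were among them.

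RNA of mouse embryonic stem cells (ESCs) and embryoid bodies (EBs) was hybridised to 12 arrays, 1 for each sample. EBs are free-floating aggregates that differentiate once leukaemia inhibitory factor (LIF) is withdrawn. The study asked what the heterochromatin proteins HP1α and HP1β do in pluripotent and in differentiating cells. There were 6 groups of 2 arrays: WT, HP1αKO (Cbx5-/-) and HP1βKO (Cbx1-/-), each in the ESC state and after 7 days as EBs, with no further treatment. ESCs were grown on mitomycin-C treated fibroblast feeders and, by the methods, sorted for the surface antigen SSEA1 on magnetic beads.

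WT was labelled as line HM1 and both knockouts as line R1, while the methods call HM1 a littermate control, so genotype and line cannot be told apart between a knockout and WT. HP1βKO against HP1αKO is a comparison within 1 labelled line. The methods list R1 apart from the knockout cells, so that shared line rests on the labels only. The titles call the replicates biological, but no source used here says whether they were separate cultures, and the p-values measure only the spread between these samples. Cbx1 was lower in both HP1βKO libraries of each state. Cbx5 went against 2 labels in ESCs: the library labelled ESC WT 2 read 8.29 against 9.66 in its partner and the library labelled ESC HP1αKO 2 read 9.995 against 8.04, so results that rest on ESCs are also given without these 2 libraries. All 8 markers of pluripotent cells lay above the background limit on every ESC array. The SD over genes of the difference between replicates was 0.39 to 0.57 in the ESC groups and 0.13 to 0.20 in the EB groups.

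In EMT, cells that hold together through E-cadherin lose their junctions and keratin filaments and take on a motile form with N-cadherin and vimentin. Snail, Slug and the ZEB proteins are zinc finger repressors that bind the E-box CACCTG, which reads CAGGTG on the other strand, and they repress Cdh1 and other epithelial genes. ESCs are themselves epithelial in character, and the transition takes place at gastrulation, when mesoderm leaves the epiblast, so EBs pass through it as mesoderm forms.

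The start regions of 3 epithelial genes are shown because their level changed with differentiation and the E-box stands in them. The windows run from 250 bases before to 50 bases after the RefSeq start on build GRCm38.p6, are written 5′ to 3′ on the strand of the gene, and have the E-box in capitals. Epcam lies at chr17:87635729-87636028 on the plus strand, Krt8 at chr15:102004293-102004592 on the minus strand and Krt18 at chr15:102027966-102028265 on the plus strand.
Epcam: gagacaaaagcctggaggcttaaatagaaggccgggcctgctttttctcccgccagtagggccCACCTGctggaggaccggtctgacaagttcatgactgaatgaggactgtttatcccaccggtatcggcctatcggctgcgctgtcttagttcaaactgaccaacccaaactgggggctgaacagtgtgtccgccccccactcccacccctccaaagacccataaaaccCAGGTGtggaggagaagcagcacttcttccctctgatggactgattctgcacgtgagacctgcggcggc
Krt8: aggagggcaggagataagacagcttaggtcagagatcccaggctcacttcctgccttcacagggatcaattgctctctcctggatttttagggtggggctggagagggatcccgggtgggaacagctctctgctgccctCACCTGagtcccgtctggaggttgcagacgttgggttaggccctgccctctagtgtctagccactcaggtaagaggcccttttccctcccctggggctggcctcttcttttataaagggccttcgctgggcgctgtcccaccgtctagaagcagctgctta
Krt18: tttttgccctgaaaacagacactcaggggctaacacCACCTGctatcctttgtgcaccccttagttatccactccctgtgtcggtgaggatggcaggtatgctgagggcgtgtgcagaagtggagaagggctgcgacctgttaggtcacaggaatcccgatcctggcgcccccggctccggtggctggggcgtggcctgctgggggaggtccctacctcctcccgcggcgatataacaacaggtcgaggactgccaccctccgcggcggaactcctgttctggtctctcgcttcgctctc
With the start base counted as 0, the first base of the E-box stood at -187 and -19 in Epcam, at -111 in Krt8 and at -214 in Krt18. Both strands were searched, and because the E-box pairs with its own other form no site was counted on both. Windows were read for 6 of the 10 genes. Snai1 also held 1 E-box, at -126, while the window of Vim and the 4 windows of Zeb2 held none. Of 32851 windows of this length in the table, 20.21% held the E-box, and a match describes the letters only. Krt8 and Krt18, whose products pair into filaments, lie near each other on chromosome 15, with the predicted genes Gm36026 and Gm41404 between them.

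**Figure D1:**
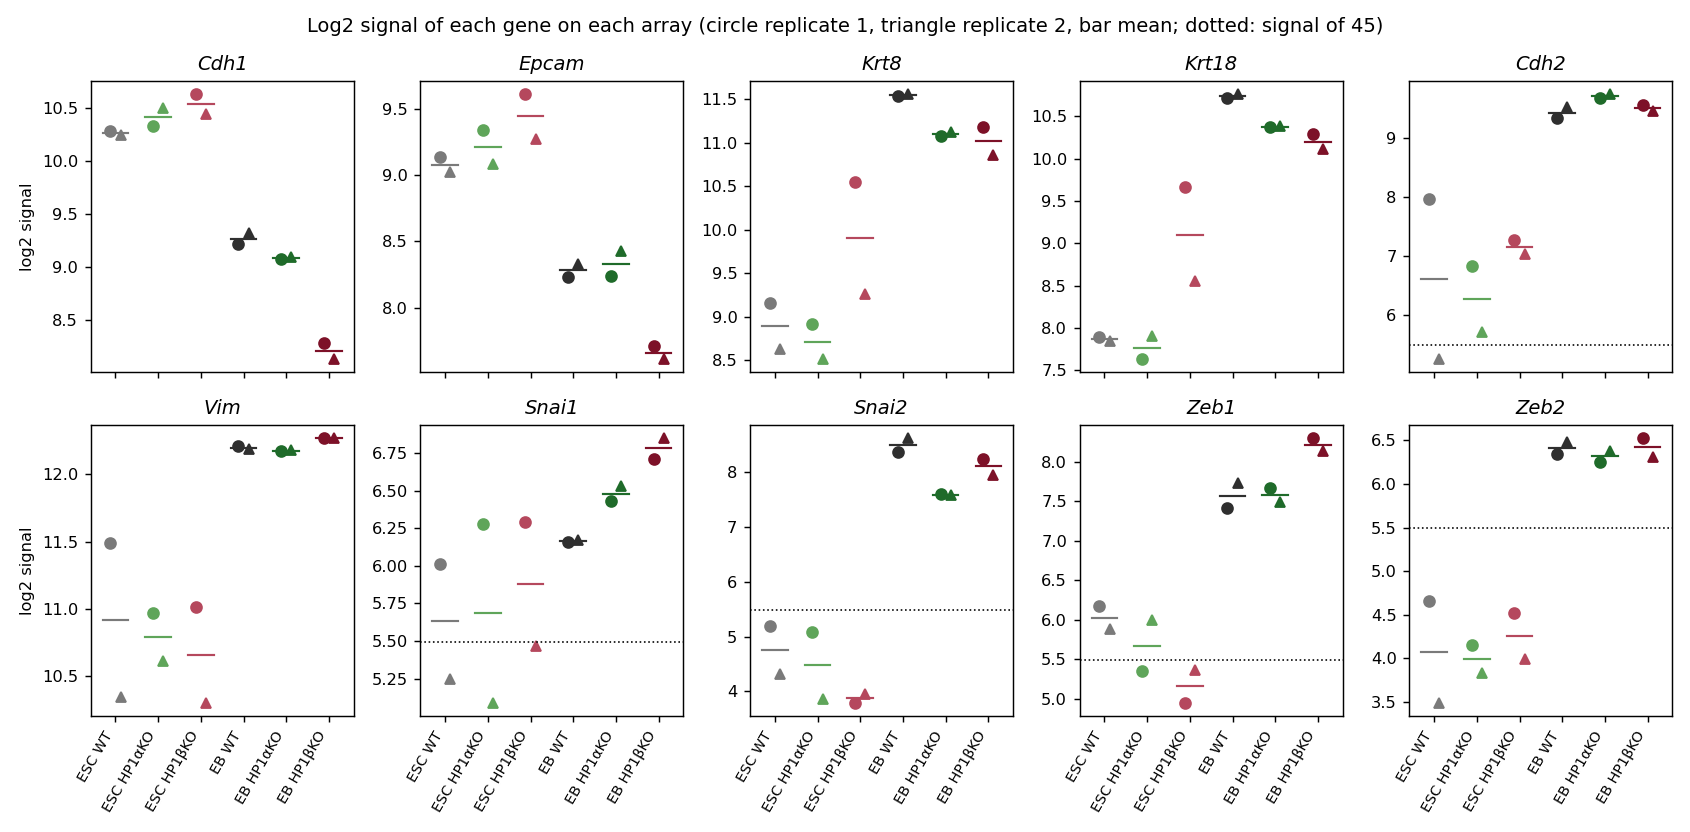
Log2 signal of each EMT gene on each array, by group, with circles for replicate 1, triangles for replicate 2 and a bar at the mean of 2. The dotted line, drawn where it falls within the axis, is the background limit of log2 5.49. Cdh1 and Epcam lie lower and 7 other genes higher in all 6 EB arrays than in all 6 ESC arrays, and Cdh1 reaches its lowest values, 8.28 and 8.13, in HP1βKO EBs.

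Differentiation moved 9 of the 10 genes. Cdh1, which encodes E-cadherin, the adhesion molecule of epithelial junctions, read 10.28 and 10.25 in ESC WT and 9.22 and 9.32 in EB WT. Its difference was -1.001 ± 0.13 (log2, SE), a 2.00-fold fall (adjusted p = 0.000484, limma with Benjamini-Hochberg adjustment over all genes tested). Epcam, a surface glycoprotein of epithelia and of pluripotent cells, fell from 9.14 and 9.02 to 8.23 and 8.33 (-0.80 ± 0.16, adjusted p = 0.0046). EBs hold many cell types, so fewer cells of a type and less RNA per cell cannot be told apart here or in what follows.

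The keratins went the other way from Cdh1 and Epcam. Krt8, the keratin of simple epithelia, read 9.16 and 8.63 in ESC WT and 11.54 and 11.56 in EB WT, a rise of 2.66 ± 0.36 (adjusted p = 0.000649). Its partner Krt18 rose by 2.87 ± 0.29, from 7.89 and 7.85 to 10.72 and 10.76 (adjusted p = 0.000115). The 4 epithelial genes thus split into a pair that fell and a pair that rose, with no overlap between ESC and EB arrays in either. Markers of extraembryonic endoderm, an epithelium of the EB surface that carries these keratins, rose in 8 of 10 tested: their summed signal over 12 genes was 426 and 305 in ESC WT and 2986 and 3468 in EB WT, with Cubn and Amn under the background limit on both EB arrays. Their part in the keratin result was not tested.

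All mesenchymal genes and regulators other than Snai1 rose. Cdh2, which encodes the N-cadherin of mesenchymal and neural cells, read 7.97 and 5.25 in ESC WT and 9.34 and 9.54 in EB WT (2.83 ± 0.69, adjusted p = 0.0124). Vim, the intermediate filament of mesenchymal cells, rose from 11.49 and 10.34 to 12.21 and 12.19 (1.29 ± 0.34, adjusted p = 0.0173). The EB arrays of both genes lay close together, while the 2 ESC WT arrays stood 2.71 apart for Cdh2, a wider gap than 99.7% of the genes tested, and 1.15 apart for Vim. The size for Cdh2 rested on these: it was 1.47 without ESC WT 2 and 4.18 without ESC WT 1, while Vim gave 0.71 and 1.86. Neither call was held in every fit with 1 library left out. Cdh2 had an adjusted p of 0.0534 without EB WT 1 and of 0.0724 without EB WT 2, and Vim had 0.0803, 0.0771 and 0.0811 without ESC WT 2, EB WT 1 and EB WT 2.

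Of the regulators Snai2, Zeb1 and Zeb2 rose. Snai2, which encodes Slug, read 5.20 and 4.32 in ESC WT and 8.38 and 8.63 in EB WT, a difference of 3.74 ± 0.38 (adjusted p = 0.000123). Zeb2 read 4.66 and 3.49 in ESC WT and 6.34 and 6.48 in EB WT (2.34 ± 0.33, adjusted p = 0.000848). Both genes lay under the background limit on all 6 ESC arrays, so the sizes of their differences are uncertain. Zeb1, a close relative of Zeb2, rose from 6.17 and 5.88 to 7.41 and 7.73 (1.54 ± 0.24, adjusted p = 0.0013).

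Snai1, which encodes Snail, did not pass the test in any genotype. It read 6.01 and 5.25 in ESC WT and 6.16 and 6.17 in EB WT, a difference of 0.53 ± 0.40 (adjusted p = 0.327). The differences in the HP1αKO and HP1βKO lines were 0.79 and 0.90 (adjusted p = 0.137 and 0.102). The ESC libraries deviated together by replicate number, and with this number as a block among ESCs the adjusted p fell to 0.0101, 0.0011 and 0.000594 in WT, HP1αKO and HP1βKO, while the differences stayed as given. All 10 genes were then called in each genotype, against 47.2%, 51.7% and 47.7% of all genes.

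The counts were alike in the 3 genotypes. In WT, 7 genes rose and 2 fell, against 36.2% of all genes called, 22% higher and 14.2% lower. In HP1αKO the counts were again 7 and 2, against 41.6% (25% higher and 16.5% lower), and in HP1βKO again 7 and 2, against 37.1% (22% higher and 15.1% lower). No member overlapped between ESCs and EBs in any genotype, and 69.1%, 75.1% and 74.7% of all genes did not overlap either. Without the 2 libraries whose Cbx5 opposed their label, 8 genes were called in WT (Vim 0.71, adjusted p = 0.0534), 9 in HP1αKO and 10 in HP1βKO, against 38.9%, 49.3% and 53.2% of all genes.

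In the knockouts Cdh1 fell by 1.33 ± 0.13 in HP1αKO and fell by 2.33 ± 0.13 in HP1βKO. Epcam fell by 0.88 ± 0.16 in HP1αKO and fell by 1.78 ± 0.16 in HP1βKO (adjusted p at most 0.0023 for both genes). Zeb1 rose by 1.91 ± 0.24 in HP1αKO and 3.05 ± 0.24 in HP1βKO, and Snai2 by 3.11 ± 0.38 and 4.23 ± 0.38. Zeb1 was under the background limit on both ESC HP1βKO arrays and Snai2 on all ESC arrays, so these sizes are uncertain. Krt8 rose by 1.11 ± 0.36 in HP1βKO (adjusted p = 0.0373) and Krt18 by 1.10 ± 0.29 (adjusted p = 0.0153), against 2.40 and 2.61 in HP1αKO. Whether the HP1βKO values differ from those of WT is tested further on, gene by gene. Without ESC HP1βKO 2 the Krt8 difference was 0.47 and did not pass (adjusted p = 0.232), and Krt8 also missed the threshold without any 1 of the 6 EB libraries (adjusted p = 0.0571 to 0.177). Without ESC HP1βKO 1 the Krt8 difference was 1.76. Krt18 gave 0.54 without ESC HP1βKO 2 and 1.65 without ESC HP1βKO 1, and missed the threshold without EB HP1βKO 1 (0.0902) or EB HP1βKO 2 (0.0556), and Cdh2, at 2.36, missed it without any 1 of the 4 HP1βKO libraries (0.07 to 0.11). In HP1αKO Vim missed it without ESC HP1αKO 2 (0.057), EB HP1αKO 1 (0.0534) or EB HP1αKO 2 (0.0545), and Snai1 passed it without ESC HP1αKO 1 (0.0193).

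**Figure D2:**
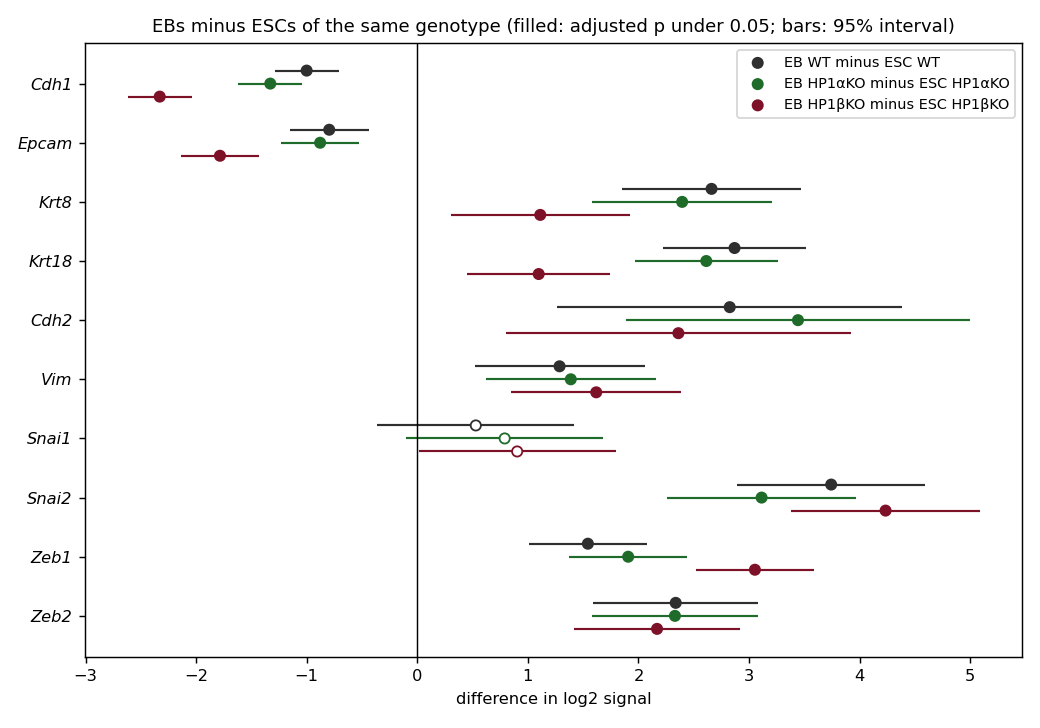
Difference in log2 signal, EBs minus ESCs of the same genotype, for each EMT gene, with a point for each genotype and its 95% interval from the 12-array fit. Filled points have an adjusted p under 0.05. Cdh1 lies at -1.001 in WT and -2.33 in HP1βKO, and the open points are those of Snai1.

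The comparison the study centres on in EBs is HP1βKO against WT, and 1 of the 10 EMT genes was called in it, Cdh1. Cdh1 read 9.22 and 9.32 in EB WT, with 9.08 and 9.09 for EB HP1αKO, while the 2 EB HP1βKO arrays read 8.28 and 8.13. Both HP1βKO libraries lay below the other 4. The difference from WT was -1.06 ± 0.13, a 2.09-fold lower level (95% interval -1.35 to -0.77, adjusted p = 0.0021, limma), a larger difference than that of 97.4% of all genes. The share of all genes called was 3.24%, and 1.62% were called lower. Cdh1 stayed below the threshold without each library in turn (adjusted p = 0.0024 to 0.0368).

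Epcam had the next lowest p-value. It read 8.23 and 8.33 in EB WT against 7.71 and 7.61 in EB HP1βKO, and the groups did not overlap. Its difference of -0.62 ± 0.16 missed the threshold (95% interval -0.98 to -0.27, adjusted p = 0.0785). The keratins were lower in both HP1βKO libraries too, at 11.18 and 10.86 for Krt8 (-0.53 ± 0.36, adjusted p = 0.651) and 10.29 and 10.11 for Krt18 (-0.54 ± 0.29, adjusted p = 0.529), and neither difference passed the test.

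Of the regulators, Zeb1 read 7.41 and 7.73 in EB WT against 8.30 and 8.13 in EB HP1βKO (0.65 ± 0.24, adjusted p = 0.261), and Snai1 read 6.16 and 6.17 against 6.71 and 6.85 (0.62 ± 0.40, adjusted p = 0.627). Both were higher in both HP1βKO libraries, short of the threshold. Snai2 read 8.25 and 7.96 in EB HP1βKO against 8.38 and 8.63 (-0.40 ± 0.38). The mesenchymal genes and the regulator Zeb2 lay close to WT. Vim differed by 0.07 (95% interval -0.70 to 0.84), Cdh2 by 0.08 (-1.48 to 1.64) and Zeb2 by 0.01 (-0.74 to 0.76). Groups of 8 of the 10 genes did not overlap, against 56.5% of all genes.

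How many of these differences passed depended on the spread used, because the 12-array fit gives EBs the wider spread of the ESC arrays. Fitted on the 6 EB arrays alone, 6 genes passed, against 18.8% of all genes: Cdh1, Epcam (adjusted p = 0.0049), Krt8 (0.0161) and Krt18 (0.0062) lower, and Snai1 (0.0032) and Zeb1 (0.0129) higher. With the replicate block among ESCs, 3 passed against 6.44%, namely Cdh1, Epcam (0.015) and Snai1 (0.0252). Without the libraries labelled ESC WT 2 and ESC HP1αKO 2, Cdh1 and Epcam (0.0316) passed, against 8.93%.

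**Figure D3:**
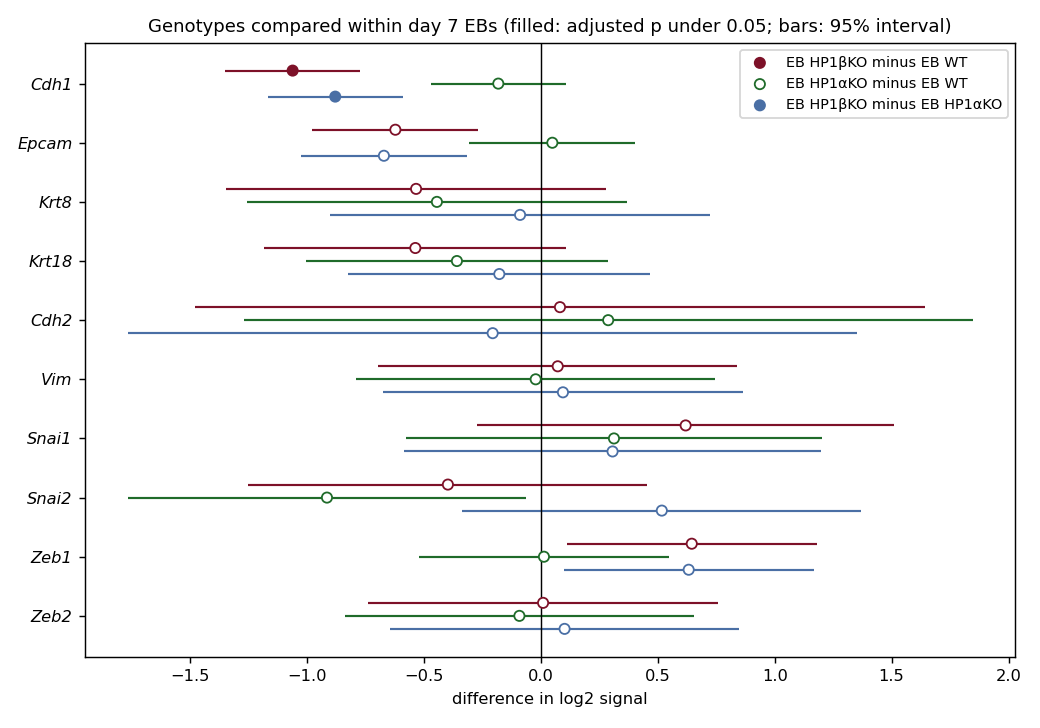
Differences in log2 signal between genotypes within day 7 EBs for each EMT gene, with points for each of 3 comparisons and 95% intervals from the 12-array fit. Filled points have an adjusted p under 0.05. Only Cdh1 is filled, at -1.06 for HP1βKO minus WT and -0.88 for HP1βKO minus HP1αKO.

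HP1αKO EBs had 0 of the 10 genes called against EB WT in this limma fit, 1 at an unadjusted p under 0.05, and 1.24% of all genes were called. The gene with the unadjusted p under 0.05 was Snai2, at 7.60 and 7.58 in EB HP1αKO against 8.38 and 8.63 in EB WT (-0.91 ± 0.38, adjusted p = 0.528). Both HP1αKO libraries lay below both WT and both HP1βKO libraries. It passed in the fit on the 6 EB arrays (adjusted p = 0.0042), as did Krt8 (0.0443) and Krt18 (0.0434), 3 genes against 12.1% of all genes, and Snai2 passed without the 2 opposed ESC libraries too (0.0115), as did 4.11% of all genes. With the replicate block among ESCs 0 of the 10 passed, against 2.56%. Cdh1 differed from WT by -0.18 ± 0.13 (95% interval -0.47 to 0.11), and Epcam by 0.05 ± 0.16. Groups of 7 genes did not overlap, against 58.8% of all genes.

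Set against each other, HP1βKO EBs had less Cdh1 than HP1αKO EBs (-0.88 ± 0.13, adjusted p = 0.0045), the 1 gene of 10 called, against 3.73% of all genes and 2.45% called lower. Epcam, at 8.24 and 8.43 in EB HP1αKO, differed by -0.67 ± 0.16 and missed the threshold (adjusted p = 0.0524), and Zeb1, at 7.67 and 7.49, differed by 0.63 ± 0.24 (adjusted p = 0.257). Groups of 8 genes did not overlap, against 63.2% of all genes. The Cdh1 call was lost without EB HP1αKO 1 (adjusted p = 0.0609), EB HP1αKO 2 (0.0656) or EB HP1βKO 2 (0.0582). Epcam joined Cdh1 with the replicate block among ESCs (0.0089, with 7.55% of all genes called), without the 2 opposed ESC libraries (0.0213, with 9.49%), and without any 1 of the 6 ESC libraries (0.0392 to 0.0432). On the 6 EB arrays alone 4 passed, against 19.9%: Cdh1, Epcam, Snai2 and Zeb1. Both knockouts carry the same line label, so this difference lies within 1 labelled line. This comparison and that of HP1βKO with WT share the HP1βKO arrays.

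Markers of several cell types differed between the EB groups at the same time. The summed signal of 9 heart muscle markers was 7235 and 6767 for EB WT, 13870 and 13728 for EB HP1αKO and 1129 and 797 for EB HP1βKO, where Myh7 and Tbx5 lay under the background limit on both arrays. That of 9 neural markers was 580 and 680, 479 and 483, and 217 and 215, with 7 of the 9 under the limit in EB HP1βKO. In HP1βKO 6 of 7 tested were called lower than in EB WT. This sum does not read neural cells alone, since it was higher in ESC WT, at 1442 and 1724. Stmn2, a gene of this list, read 10.17 and 10.46 in ESC WT and 7.70 and 7.87 in EB WT. The summed signal of 8 markers of pluripotent cells, which express Cdh1 and Epcam, was 1031 and 1204 for EB WT. It was 1413 and 1372 for EB HP1αKO and 1733 and 1493 for EB HP1βKO. In HP1βKO 2 of the 8 were called higher than in WT. In HP1αKO 1 was called higher and 1 lower, 4 of the 8 lay above WT, and the median difference was -0.41. Sox2 read 9.98 and 9.95 in EB HP1αKO against 8.83 and 9.09 in EB WT, while Pou5f1 read 6.11 and 6.15 against 7.19 and 7.46. Markers of extraembryonic endoderm summed to 2986 and 3468 for EB WT, 2246 and 2136 for EB HP1αKO, and 3912 and 3204 for EB HP1βKO. The 12 fibroblast markers summed to 2286 and 2534, to 4848 and 5141, and to 6201 and 5608 in the same order. They were higher than in WT in both knockouts, with Thy1 and Fap under the limit in all 3 groups. Endothelial markers had 0 of 8 tested called and those of trophoblast and surface ectoderm 0 of 3 (3 and 2 at an unadjusted p under 0.05, limma). The part of cell makeup in the Cdh1 difference was not tested.

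In ESCs no EMT gene was called in either knockout against WT in this limma fit, as was no gene of the 10880 (0%). Cbx1, the gene deleted in HP1βKO, was itself not called there (-1.94 ± 0.22, adjusted p = 0.0743, limma). The lack of calls in ESCs therefore says little about the EMT genes. For HP1βKO, Krt18, Krt8, Zeb1, Snai2 and Epcam had an unadjusted p under 0.05. No share of all genes at that threshold is given here, so their number is not read as a result. Krt18 read 7.89 and 7.85 in ESC WT and 9.66 and 8.55 in ESC HP1βKO (1.23 ± 0.29, adjusted p = 0.539), and Krt8 read 9.16 and 8.63 against 10.55 and 9.26 (1.02 ± 0.36, adjusted p = 0.759). Both keratins were higher in both HP1βKO libraries, and mostly so in the first. Zeb1 read 6.17 and 5.88 against 4.95 and 5.37 (-0.87 ± 0.24, adjusted p = 0.666), Snai2 5.20 and 4.32 against 3.79 and 3.95 (-0.89 ± 0.38, adjusted p = 0.839), and Epcam 9.14 and 9.02 against 9.61 and 9.27 (0.37 ± 0.16, adjusted p = 0.846). Of these Snai2 was under the background limit throughout and Zeb1 on both HP1βKO arrays, so little weight can rest on their sizes. Groups of 6 genes did not overlap, against 25.3% of all genes.

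With the replicate block among ESCs, which called 52 genes of all those tested (0.478%), Krt8 and Krt18 had adjusted p = 0.074 and 0.0875. Without ESC HP1βKO 2, Krt18 differed by 1.79 and passed (adjusted p = 0.0389). Without the libraries labelled ESC WT 2 and ESC HP1αKO 2, WT is a single library whose spread the fit takes from the other groups. Snai2 was then called (-1.33, adjusted p = 0.0205), 1 gene of 10 against 1.41% of all genes, with all its ESC arrays under the background limit, so neither its size nor its call is firm. Cdh2 differed by -0.81 there (adjusted p = 0.0501), where with all libraries it differed by 0.55. Cdh1 differed by 0.27 ± 0.13 with all libraries (95% interval -0.02 to 0.56).

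Between ESC HP1αKO and ESC WT none of the 10 had an unadjusted p under 0.05, and the differences ran from -0.35 for Zeb1 to 0.15 for Cdh1. Only the Cdh1 groups did not overlap, against 12.6% of all genes. Leaving out the 2 opposed libraries leaves 1 library in each group, and the fit then takes the spread from the other groups. Cdh2, at 6.84 against 7.97, was called in it (-1.12, adjusted p = 0.0443, with 0.625% of all genes called), but the 2 ESC WT libraries themselves stood 2.71 apart for this gene, so the call has no replicate behind it.

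Of the 10 genes, 6 were lower in the second than in the first replicate of all 3 ESC groups, namely Cdh2, Vim, Snai1, Zeb2, Krt8 and Epcam, which are genes of both sides. Zeb1 was higher in the second replicate of both knockouts. Cdh2 read 7.97, 6.84 and 7.27 in the first replicates of WT, HP1αKO and HP1βKO and 5.25, 5.72 and 7.04 in the second. Vim read 11.49, 10.97 and 11.01 against 10.34, 10.61 and 10.30, and Snai1 6.01, 6.28 and 6.29 against 5.25, 5.09 and 5.47. The summed signal of 12 markers of feeder fibroblasts ran the same way, at 1913, 1169 and 867 in the first replicates and 441, 455 and 482 in the second. Between 6 and 10 of the 12 markers lay above the background limit in the first replicates and 5 or 6 in the second, and Lum and Fap were under it in all 6 libraries. Of these markers 5 are also mesenchymal genes or factors in the lists used further on. The part of feeder RNA in these levels was not tested.

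The difference of Cdh1 between HP1βKO and WT was not the same in the 2 states. Genotype and line cannot be told apart in it. Cdh1 was 0.27 higher than WT in ESC HP1βKO, which did not pass the test alone (adjusted p = 0.85, limma), and 1.06 lower in EB HP1βKO. The EB difference minus the ESC difference was -1.33 ± 0.18 (adjusted p = 0.0085, limma), with 1.3% of all genes called and 0.68% called with this sign. No other EMT gene passed: Zeb1 gave 1.51 ± 0.34 (adjusted p = 0.073), Epcam -0.99 ± 0.22 (0.0763), Krt18 -1.77 ± 0.41 (0.0794) and Krt8 -1.55 ± 0.51 (0.236). The Zeb1 value rests on 2 ESC HP1βKO arrays under the background limit, here and in the fits that follow. With the replicate block among ESCs these 4 passed as well (adjusted p = 0.0213, 0.012, 0.0265 and 0.0156), 5 genes of 10 against 5.27% of all genes. Leaving out the 2 opposed libraries leaves ESC WT as a single library, whose spread the fit takes from the other groups. For Cdh2 that library read 7.97, against 5.25 in the ESC WT library left out. The Cdh2 call given next, with its sign reversed, therefore has no ESC WT replicate behind it and is not read as a result. Without the 2 opposed libraries 3 passed against 5.77%: Cdh1 (-1.31, 0.0075), Zeb1 (1.65, 0.0157) and Cdh2 (0.89, 0.0396), whose difference was -0.46 with all libraries. The Cdh1 call was lost without EB WT 2 (adjusted p = 0.0595) or EB HP1βKO 2 (0.0562).

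Some EMT genes varied together from array to array. Across the 12 arrays, which fall into an ESC and an EB cluster, the genes most like Cdh1 of 10879 compared were Stmn2 (Pearson's r = 0.985), Ell2 (0.980) and Epcam (0.98). Within the 6 EB arrays Cdh1 and Epcam had r = 0.96 and within the 6 ESC arrays 0.69. Krt18 was the gene most like Krt8 (0.987), with 0.97 and 0.93 within EBs and ESCs. Of the 4 regulators, Cdh1 ran against Zeb1 in both states (r = -0.89 within EBs and -0.63 within ESCs), against Snai1 within EBs but not ESCs (-0.92 and 0.14) and against Snai2 within ESCs but not EBs (-0.75 and 0.11), with little relation to Zeb2 (-0.115 within EBs and 0.27 within ESCs). Epcam ran against Zeb1 with -0.89 and -0.91. Snai2 and Zeb2 lay under the background limit on all 6 ESC arrays. Zeb1 lay under it on both ESC HP1βKO arrays and on ESC HP1αKO 1, and Snai1 on the second array of each ESC group. Values within ESCs that involve these 4 regulators therefore carry little weight. Cdh1 and the keratins ran together within each state (r = 0.67 to 0.85) but opposite over all 12 arrays (-0.75), since Cdh1 fell and the keratins rose with differentiation. These are descriptions over 6 or 12 arrays in groups of 2, which share the group means.

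Among the mesenchymal genes and regulators, Vim was most like Fstl1 (0.997), Parva (0.992) and Cdh11 (0.991), and Zeb2 most like Ywhab (0.997), Col4a2 (0.997) and Serpinh1 (0.995). Snai2 was most like Fli1, Nrp1 and Dennd5b (0.985 to 0.989), Zeb1 most like Keap1, Hcfc2 and Ppic (0.987 to 0.989), and Cdh2 most like Dbn1, Slc43a1 and Lmo4, all near 0.985. Snai1 had the weakest match, Ssr1 (0.965).

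**Figure D4:**
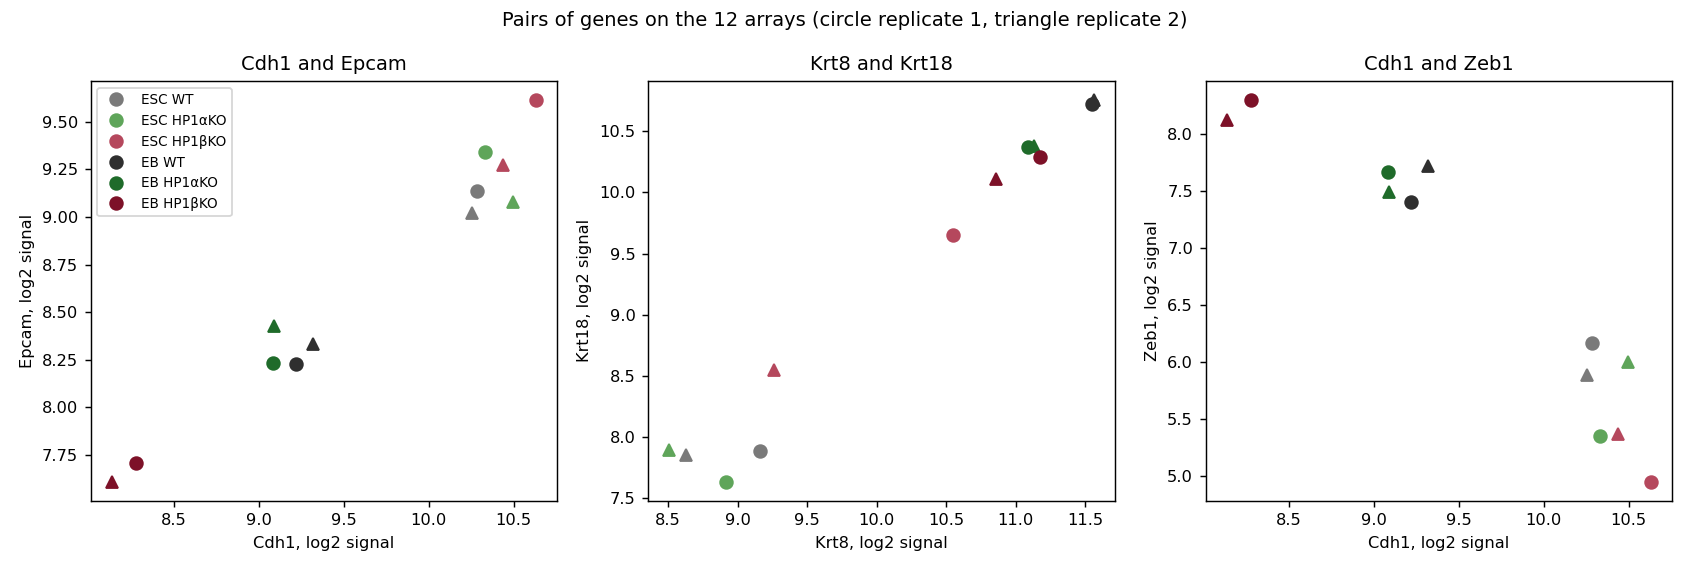
Log2 signals of Cdh1 and Epcam, of Krt8 and Krt18, and of Cdh1 and Zeb1 on the 12 arrays, by group, with circles for replicate 1 and triangles for replicate 2. ESC and EB arrays form separate clusters in each panel, and the HP1βKO EBs hold the lowest Cdh1 and Epcam and the highest Zeb1.

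Other genes of the transition were read from 7 lists. On differentiation in WT, other EMT transcription factors rose in 8 of 12 and fell in 0, with a median difference of 1.30 against 0.05 over all genes, of which 22% were called higher and 14.2% lower. Twist1 rose by 3.30 ± 0.60, Foxc1 by 3.09 ± 0.28, Twist2 by 2.18 ± 0.40 and Hmga2 by 1.94 ± 0.24. In ESC WT, Foxc1 was under the background limit on both arrays and Twist1 and Twist2 on 1, so these sizes are uncertain. Mesenchymal matrix genes rose in 6 of 10 and fell in 0 (median 1.73), among them Postn (3.76 ± 0.66) and Vcan (3.02 ± 0.22), which encode matrix proteins, and Mmp2 (2.04 ± 0.34), a matrix protease. Mesenchymal cytoskeleton and surface genes rose in 9 of 17 and fell in 1 (median 1.00), among them the growth factor receptor gene Pdgfra (4.47 ± 0.59). Postn and Pdgfra were under the background limit on 1 of the 2 ESC WT arrays. TGF-beta signalling genes, an inducer of the transition, rose in 9 of 14 and fell in 0 (median 0.73), among them the ligand gene Tgfb2 (3.39 ± 0.18), which was under the background limit on both ESC WT arrays, so that its size is uncertain.

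The epithelial lists were mixed, as the 4 epithelial members were. Junction and polarity genes rose in 8 of 24 and fell in 1 (median 0.30), against 22% and 14.2% of all genes. Among those that rose were the desmosome genes Dsp (1.63 ± 0.25) and Dsc2 (2.504 ± 0.33), which heart muscle also uses, and Dsc2 was under the background limit on both ESC WT arrays, so its size is uncertain. Simple keratins and epithelial surface genes rose in 3 of 9 and fell in 2 (median -0.05). Epithelial transcription and splicing factors rose in 0 of 7 and fell in 3 (median -0.80): Klf5 (-2.98 ± 0.24), which is also a factor of pluripotent cells, Grhl3 (-1.22 ± 0.37) and Esrp2 (-0.51 ± 0.16), of which Grhl3 and Esrp2 were under the background limit on both EB WT arrays.

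**Figure D5:**
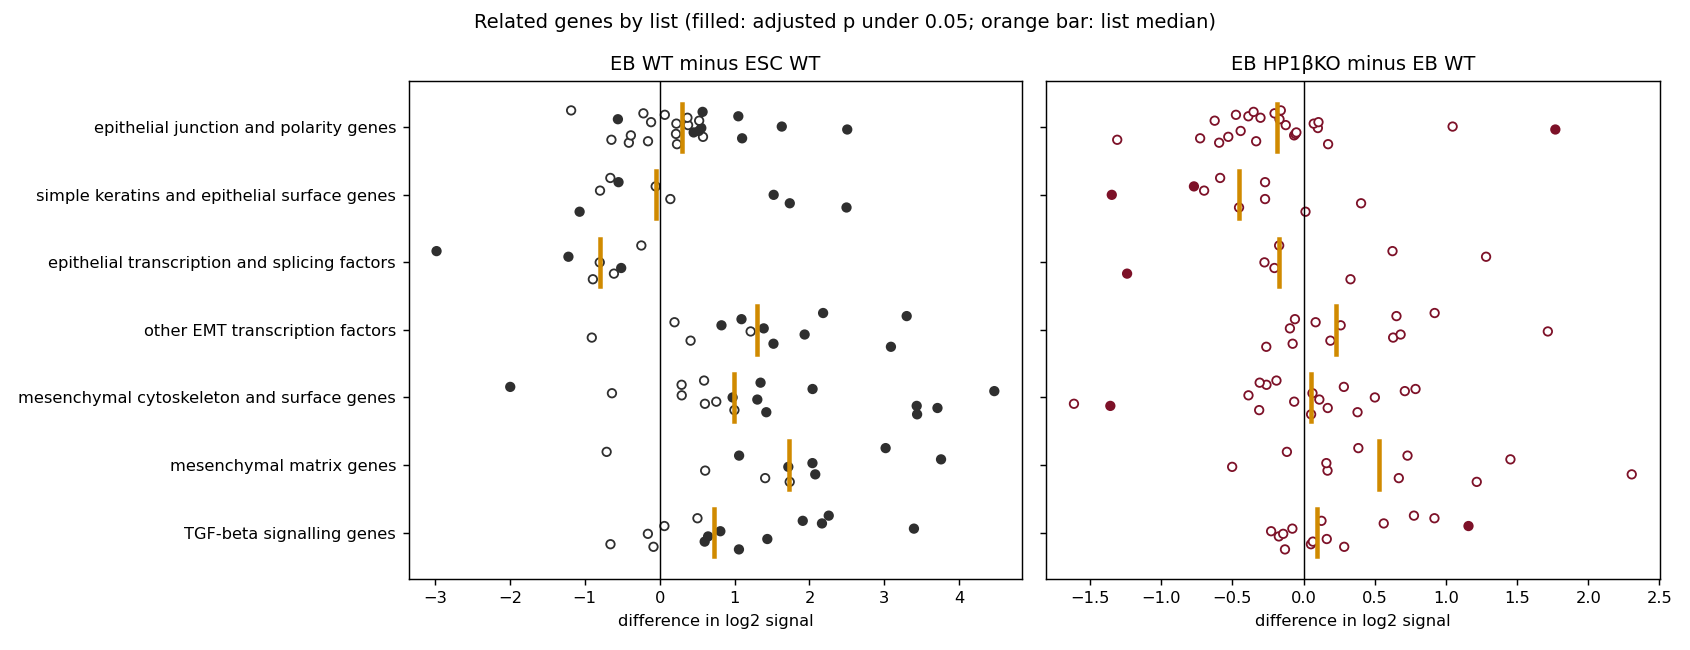
Differences in log2 signal of the genes of 7 related lists, EB WT minus ESC WT on the left and EB HP1βKO minus EB WT on the right, with a point for each gene and an orange bar at the list median. Filled points have an adjusted p under 0.05. The mesenchymal lists and EMT factors lie to the right of 0 on the left panel (medians 1.00 to 1.73), while few points are filled on the right.

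In EB HP1βKO against EB WT few genes of these lists were called. The epithelial splicing regulator Esrp1, which keeps epithelial forms of transcripts, read 7.62 and 7.79 in EB WT against 6.58 and 6.36 in EB HP1βKO (-1.24 ± 0.24, adjusted p = 0.0252). The membrane protease gene Prss8 fell from 7.32 and 7.58 to 6.31 and 5.90 (-1.35 ± 0.21, adjusted p = 0.0099) and the protease inhibitor gene Spint1 from 8.09 and 8.08 to 7.46 and 7.17 (-0.77 ± 0.17, adjusted p = 0.0488). Thus 1 of 7 epithelial transcription and splicing factors and 2 of 9 simple keratins and epithelial surface genes were lower, against 1.62% of all genes, with list medians of -0.17 and -0.45 against -0.01 over all genes.

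In the other lists few genes passed, where 3.24% of all genes were called. The junction genes had 1 of 24 called, Dsc2, which was higher (1.77 ± 0.33, adjusted p = 0.0197), with a median of -0.19. Of the mesenchymal lists, 1 of 17 cytoskeleton and surface genes was called, the cadherin gene Cdh6, which was lower (-1.36 ± 0.17, adjusted p = 0.0027), and 0 of 10 matrix genes, 2 of them at an unadjusted p under 0.05, with medians of 0.05 and 0.53. None of 12 other EMT transcription factors was called (3 at an unadjusted p under 0.05, median 0.22). Of 14 TGF-beta signalling genes 1 was higher, the ligand gene Tgfb3, at 4.43 and 4.61 in EB WT, under the background limit, and 5.66 and 5.69 in EB HP1βKO (1.16 ± 0.20, adjusted p = 0.0147). In EB HP1αKO against EB WT the 1 gene of the 7 lists called was Foxc2, a forkhead factor, which was higher (1.45 ± 0.20, adjusted p = 0.0089, with 1.24% of all genes called).

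Against EB HP1αKO, EB HP1βKO had less Esrp1 (-1.54 ± 0.24), Prss8 (-1.35 ± 0.21), Spint1 (-0.90 ± 0.17), Cdh6 (-1.11 ± 0.17) and Foxc2 (-1.53 ± 0.20, under the background limit on both EB HP1βKO arrays), with adjusted p of at most 0.0196, and no gene of the 7 lists was called higher. In the ESC comparisons no gene of the 7 lists was called by limma. At an unadjusted p under 0.05 there were 17 genes for HP1βKO and 1 for HP1αKO, with no share of all genes to set beside them.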

How the data were processed

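Total RNA of 12 samples was hybridised to 1 array each. Per the labels and the study's methods, the authors ran RMA (background correction, quantile normalization and summarization) in Affymetrix Expression Console, and the deposited values are log2 signals. Software versions, genome build and annotation were not given in the sources used here. An exon array is named in the methods, while the feature names matched an annotation of a whole-transcript gene array. Quantile normalization gives all arrays nearly the same distribution, so an overall change in RNA cannot be seen, and the number of arrays limits the precision.

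Of 35556 features, 21789 carried 1 gene symbol, 1621 several and 12146 none. The feature with the highest mean stood for a gene. Genes above a signal of 45 on at least 1 array entered limma 3.58.1 in R 4.3.3, with a mean for each of 6 groups, no covariate, and 1 pooled spread over ESCs and EBs. P-values were adjusted by the Benjamini-Hochberg method over all 10880 genes and called under 0.05. Counts at an unadjusted p under 0.05 are given without the share of all genes at that threshold and are not read as results. The procedure was tested on simulated data. Errors of differences are SEs from this fit, and n = 2 arrays per group.

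The genes, the related lists and the marker lists were chosen with earlier results of these data known. All 10 EMT genes are described, and from each related list at most 4 called genes per comparison, taken from those with the largest differences. Grhl3 and Krt19 are named besides, as genes of these lists that lay above WT in HP1βKO EBs without being called. The alternatives were the 6 arrays of 1 state alone, array weights, a floor of 100 or none, median centring, the mean of all features, a trended robust prior, the replicate number as a block, the 2 opposed libraries left out, each array left out, and a pairwise rule of 1.5-fold. Replicate deviations from the group mean correlated between the ESC groups (r = 0.401, 0.497 and 0.300), all above 0.1, but not in every pair of EB groups (0.112, -0.454 and -0.0921), so ESC numbers were taken as paired on this basis, and the block among ESCs was added after the data were seen. Promoter windows came from a RefSeq table. Windows of Cdh1, Snai2, Cdh2 and Zeb1 were not used here.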

Additional observations from a re-analysis of the deposited data

Results flagged for a closer look

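The HP1βKO effect on Cdh1 had opposite signs in ESCs and EBs. The effect in EBs minus that in ESCs was -1.33 ± 0.18 (log2, SE) with an adjusted p = 0.0085 (limma). The EB HP1βKO arrays read 8.28 and 8.13 against 9.22 and 9.32 in EB WT, and the ESC HP1βKO arrays 10.63 and 10.44 against 10.28 and 10.25 in ESC WT, so both arrays lay on 1 side of WT in each state. The ESC side alone did not pass the test (0.27 ± 0.13, adjusted p = 0.85). Genotype and line cannot be told apart between HP1βKO and WT. The labels assign both knockouts to line R1, while the methods list R1 apart from them. Between these knockouts, Cdh1 was lower in HP1βKO than in HP1αKO EBs (-0.88 ± 0.13, adjusted p = 0.0045, limma). HP1αKO, of R1, differed from WT, of HM1, by -0.18 ± 0.13 in EBs and 0.15 ± 0.13 in ESCs, and neither passed the test. Genotype and line change together in this comparison too, so it does not separate them.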

How the results depend on the processing

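Each group held 2 arrays, ESC replicates lay farther apart than EB replicates, and the pooled spread is set mostly by ESCs. Of 2021 alternative values of single genes, 1890 kept their direction and side of the threshold. Some differences could not change in size. Each EMT gene had 1 feature, and leaving out an ESC array leaves a difference between EB groups as it was. What moved the other values was not tested.

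For HP1βKO against WT in EBs, 1 EMT gene was called in the reported fit and without each array in turn, 3 with array weights (13.2% of all genes), 2 with the replicate block within states, 3 with the replicate block among ESCs, 2 without the 2 opposed libraries and 6 on EB arrays alone. For HP1αKO against WT in EBs, 0 became 1 with array weights (15.5% of all genes), 1 without the 2 opposed libraries, 3 on EB arrays alone, 1 by the pairwise rule, and 0 without each array in turn. For HP1βKO against HP1αKO, 1 became 4 with array weights (21.2% of all genes), 2 with no floor, 2 with the trended prior, 2 with either state-wise replicate block, 2 without the 2 opposed libraries, 4 on EB arrays alone, and 0 to 2 without single arrays. In ESCs, HP1βKO against WT gave 1 without the 2 opposed libraries, 1 by the pairwise rule and 0 to 1 without single arrays, and HP1αKO gave 1 without the 2 opposed libraries, where the lone WT and HP1αKO libraries are assumed to vary like the other groups. The state difference gave 4 with the replicate block within states, 5 with the replicate block among ESCs, 3 without the 2 opposed libraries and 0 to 3 without single arrays. The counts between EBs and ESCs stayed within 1.5 times, at 7 to 9 in WT, 8 to 10 in HP1αKO and 6 to 10 in HP1βKO without single arrays. A replicate block over all 12 arrays gave the same counts as the reported fit (1, 0, 1, 0, 0, 9, 9, 9 and 1). The shares of all genes called moved as well. For HP1βKO against WT in EBs, HP1βKO against HP1αKO and the state difference they were 3.24%, 3.73% and 1.3% in the reported fit. They were 4.65%, 5.52% and 3.37% with the block within states, and 6.44%, 7.55% and 5.27% with the block among ESCs. On EB arrays alone the first 2 were 18.8% and 19.9%. Shares with no floor, the trended prior and the pairwise rule are not given here.

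Differences that changed sign when single arrays were left out were small or lay in ESCs, and none had passed the test. For HP1βKO against WT in EBs they were Cdh2 (-0.0191 to 0.18) and Zeb2 (-0.10 to 0.12), for HP1αKO Epcam (-0.0461 to 0.14) and Zeb1 (-0.14 to 0.17, and -0.0248 with arrays centred), and for HP1βKO against HP1αKO Krt8 (-0.25 to 0.0686) and Zeb2 (-0.0126 to 0.22). In ESC HP1βKO against WT they were Cdh2 (-0.81 to 1.90), Snai1 (-0.16 to 0.65), Zeb2 (-0.41 to 0.77) and Vim (-0.84 to 0.32). In ESC HP1αKO they were Cdh2 (-1.69 to 1.03), Epcam (-0.0019 to 0.26), Krt8 (-0.44 to 0.0872), Krt18 (-0.23 to 0.0266), Snai1 (-0.55 to 0.65), Snai2 (-0.90 to 0.33), Zeb2 (-0.67 to 0.50) and Vim (-0.70 to 0.45). In the state difference they were Cdh2 (-1.82 to 0.89), Snai1 (-0.0355 to 0.78), Zeb2 (-0.76 to 0.42) and Vim (-0.24 to 0.91). Without the 2 opposed libraries, ESC HP1βKO against WT reversed for Cdh2 (-0.81), Snai1 (-0.14) and Zeb2 (-0.41), and the state difference for Cdh2 (0.89) and Zeb2 (0.42).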
